A study of Homo sapiens with 4 samples.

Results

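COPI is the protein coat that buds vesicles from the Golgi apparatus and carries escaped residents back to the endoplasmic reticulum (ER). The genes described here encode its subunits and ARF1, the small GTPase that recruits it. Members were the 10 named genes COPA, COPB1, COPB2, ARCN1, COPE, COPG1, COPG2, COPZ1, COPZ2 and ARF1, taken by symbol from a table of 61806 genes, and all 10 were found. They were selected on the counts of the same libraries, in which COPZ1 and ARCN1 differed in opposite directions while the rest of the coat stayed close. Their values in this contrast are therefore given as a description, with no test.

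The 4 libraries came from total RNA of U251-MG, an established human glioma line labelled wild type and grown in DMEM with serum. The 2 NC (negative control) libraries came from cells given a lentivirus made from the pCDH-CMV-MCS-EF1-puro vector, and the 2 COL8A1 libraries from cells given that vector with the coding sequence of COL8A1, a collagen VIII chain. All groups therefore carry a lentiviral vector, and the insert is expressed from its vector's promoter rather than at the native locus. Whether replicates were grown apart is not stated, and the spread that all p-values rest on may be technical. In bulk RNA, fewer cells of a kind and less RNA per cell cannot be told apart.

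Total counts ran from 27923796 to 33576228 per library. COL8A1 was at 2.51 and 2.43 CPM (a gene's counts scaled to a common library size, after TMM correction, the unit used for levels throughout) in NC replicates 1 and 2 and at 135 and 81.3 CPM in COL8A1 replicates 1 and 2, in the direction of the labels. Its log2 fold change was 5.45 (SE 0.315, edgeR adjusted p = 0.0681, DESeq2 adjusted p = 6.25e-72). DESeq2 thus called COL8A1 and edgeR did not. Of 10 glioma and astrocyte lineage markers, VIM (2597 to 3145 CPM) and SOX2 (528 to 691 CPM) were high, GFAP was low (0.685 and 0.564 CPM in NC, 2.045 and 1.84 CPM in COL8A1 libraries), and OLIG2 and AQP4 had 0 counts in every library. The sum of these 10 was 4125 and 4696 CPM in NC and 5018 and 4435 CPM in COL8A1 libraries. Of 9 microglia and macrophage markers 8 were below 1 CPM in all libraries (AIF1 and P2RY12 at 0), with a summed level of 5.45 and 6.65 CPM in NC and 4.03 and 5.11 CPM in COL8A1 libraries. The sum of 9 fibroblast and pericyte markers, of which LUM and PDGFRB were below 1 CPM, was 959 and 1003 CPM in NC and 1361 and 1144 CPM in COL8A1 libraries. Nearly all of it came from the others of that list (DCN, PDGFRA, RGS5, COL1A1, COL1A2, THY1 and ACTA2). The sum of 7 epithelial markers was 529 and 615 CPM against 559 and 670 CPM, with EPCAM and CDH1 below 1 CPM. The keratins KRT8, KRT18, KRT19, KRT5 and KRT14 thus made up nearly all of the epithelial sum. The sum of 7 endothelial markers was 71.9 and 71.6 against 85.9 and 67.9 CPM, with PECAM1 and CLDN5 below 1 CPM and ERG at 0. VWF, CDH5, KDR and TEK made up nearly all of the endothelial sum. The sum of 7 neuronal markers was 100.5 and 116 against 94.0 and 93.9 CPM, with RBFOX3, SNAP25 and SLC17A7 below 1 CPM. SYT1, GAD1, TUBB3 and STMN2 made up nearly all of the neuronal sum. The part of these markers in the results below was not tested.

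The coat is recruited to membranes whole, once ARF1 has been loaded with GTP. It has an inner, adaptor-like layer of beta (COPB1), gamma (COPG1 or COPG2), delta (ARCN1) and zeta (COPZ1 or COPZ2) subunits, related to the clathrin adaptors, and an outer layer of alpha (COPA), beta prime (COPB2) and epsilon (COPE) subunits. In secretory and matrix-producing cells, COPI returns receptors and ER chaperones, which keeps folding and export of proteins such as collagens going.

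The 2 zeta genes each hold a microRNA gene, and these microRNAs belong to one seed family, which is shown here because the zeta subunit is where the coat differed most. MIR148B lies in an intron of COPZ1 (chromosome 12, 54337216 to 54337314, plus strand), and MIR152 lies inside COPZ2 (chromosome 17, 48037161 to 48037247, minus strand). The mature 3p forms, from RefSeq on GRCh38.p14, are given with the seed (bases 2 to 8) in capitals.
hsa-miR-148b-3p: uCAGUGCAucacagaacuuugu
hsa-miR-152-3p: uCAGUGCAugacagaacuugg
Both carry the seed CAGUGCA, as does hsa-miR-148a-3p, which makes 3 human microRNAs with this seed in the table. Over their 21 shared bases the COPZ1 and COPZ2 microRNAs differ at 2 positions. The precursor genes MIR148B and MIR152 had 0 counts in all 4 libraries, and total RNA counts of this kind do not measure mature microRNAs.

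The promoter windows of the 2 coat genes that differed most, and of COPB2, a coat gene that differed little, are shown for comparison. Each is the 250 bases before the RefSeq start (GRCh38.p14), 5′ to 3′ on the gene's strand. These starts differ from the gene spans given below. The COPZ1 window lies inside its gene's span, which begins at 54301202. The ARCN1 and COPB2 windows run past the starts of their spans, 118572390 and 139389732 (minus strand). COPB2 has another window (139389648 to 139389897), not shown. The bases after the RefSeq start were found in a transcript of the gene for COPZ1 and COPB2 but not for ARCN1. Capitals mark matches, on either strand, to CCAAT (the CCAAT box), GGGCGG (the GC box), TGACGTGG (the unfolded protein response element), ACGTGGC (the Golgi apparatus stress response element), TGACGTCA (the cyclic AMP response element) or the ER stress response element (CCAAT and CCACG with 9 unspecified bases between). TGACGTGG and ACGTGGC can overlap each other, as can CCAAT and the ER stress response element.
COPZ1 promoter, chr12:54324881-54325130, plus strand: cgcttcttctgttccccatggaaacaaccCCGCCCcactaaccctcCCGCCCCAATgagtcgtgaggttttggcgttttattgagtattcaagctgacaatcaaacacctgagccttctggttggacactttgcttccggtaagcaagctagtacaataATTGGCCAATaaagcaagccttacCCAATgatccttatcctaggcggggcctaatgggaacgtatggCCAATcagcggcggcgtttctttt
ARCN1 promoter, chr11:118572159-118572408, plus strand: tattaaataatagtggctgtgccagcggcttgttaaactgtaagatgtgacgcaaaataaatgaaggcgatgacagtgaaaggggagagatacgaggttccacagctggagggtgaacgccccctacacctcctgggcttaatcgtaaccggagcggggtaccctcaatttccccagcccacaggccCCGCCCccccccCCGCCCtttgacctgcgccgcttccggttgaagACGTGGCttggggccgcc
COPB2 promoter, chr3:139389681-139389930, minus strand: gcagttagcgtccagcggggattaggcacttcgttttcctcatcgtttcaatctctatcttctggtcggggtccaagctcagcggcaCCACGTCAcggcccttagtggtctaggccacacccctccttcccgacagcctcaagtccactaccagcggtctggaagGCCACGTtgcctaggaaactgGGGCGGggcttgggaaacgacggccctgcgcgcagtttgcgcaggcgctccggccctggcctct
The COPZ1 window holds 5 matches to CCAAT and 2 GC boxes. Of 35116 windows in the table, 32.0% hold CCAAT at least once and 0.319% hold it at least 5 times. That cut of 5 was taken from the COPZ1 window itself, so nothing is read from the low share. The ARCN1 window holds no CCAAT, 2 GC boxes and 1 match to ACGTGGC. All 10 members have a window in the table. CCAAT was found in those of 2 members (COPZ1 and COPE) and GGGCGG in those of 8, against 37.0% and 46.2% of all genes with a window. ACGTGGC was found in 4 (ARCN1, ARF1, COPB2 and COPG1, against 3.42% of genes) and TGACGTGG in 3 (ARF1, COPB1 and COPB2, against 0.780%). The cyclic AMP and ER stress response elements matched in 0 members and in 2.03% and 0.0916% of genes. These letter matches are a description and not sites of binding.

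COPZ1 (ENSG00000111481; chromosome 12, 54301202 to 54351849, plus strand, GENCODE release 29 on GRCh38) encodes the widely expressed zeta subunit, the small chain that pairs with gamma in the adaptor layer. Its counts were 4667 and 5185 in the NC pair (replicates 1 and 2, the order used throughout) and 1911 and 1803 in the COL8A1 pair, or 152 and 154 CPM against 60.1 and 64.9 CPM. Both COL8A1 libraries were thus well below both NC libraries, and the libraries within each group lay close together. The NC mean was 153 ± 1.16 CPM and the COL8A1 mean 62.5 ± 3.39 CPM (SD, n = 2 each), 2.45-fold higher in NC, and the 4 ratios of a COL8A1 to an NC library ran from 0.391 to 0.427. The edgeR log2 fold change was −1.29, and 1.34% of the 17030 genes tested had a value as low. With each library left out in turn it ran from −1.35 to −1.24.

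ARCN1 (archain, ENSG00000095139; chromosome 11, 118572390 to 118603033, plus strand) encodes the delta subunit, the medium chain of the same layer, which pairs with beta. It went the other way, with 5427 and 6016 counts in the NC pair and 10366 and 9162 in the COL8A1 pair. These were 177 and 178.5 CPM against 326 and 329.9 CPM, so that the groups stood apart and replicates differed by little. The NC mean was 178 ± 1.07 CPM and the COL8A1 mean 328 ± 2.64 CPM (SD, n = 2 each), 1.85-fold higher in COL8A1 cells, with ratios of single libraries between 1.83 and 1.86. The log2 fold change was 0.88, reached or passed by 3.70% of the genes tested, and it ran from 0.87 to 0.89 with each library left out in turn.

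**Figure D1:**
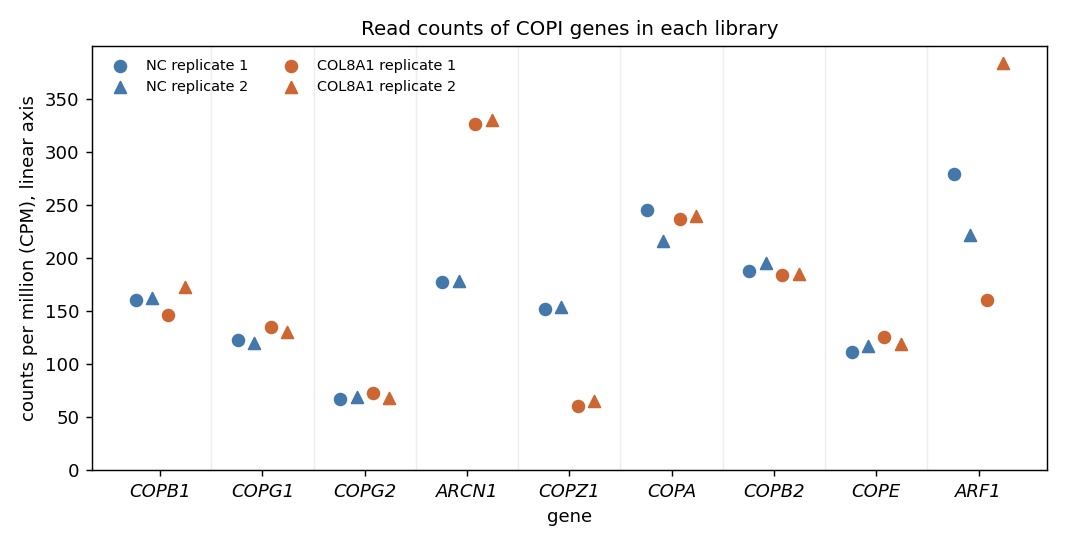
CPM (vertical axis, linear, from 0) of 9 COPI genes (horizontal axis), 1 point per library, NC in blue and COL8A1 in orange, circles for replicate 1 and triangles for replicate 2. ARCN1 is higher (326 and 329.9 against 177 and 178.5) and COPZ1 lower (60.1 and 64.9 against 152 and 154) in COL8A1 libraries, and the COL8A1 libraries differ most from each other in ARF1. COPZ2 is not drawn.

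Since the counts of both genes come from the same libraries, their ratio does not depend on library scaling. For each ARCN1 count there were 0.860 and 0.862 COPZ1 counts in the NC pair but 0.184 and 0.197 in the COL8A1 pair. Of the per-length level (TPM, computed with GENCODE exon lengths) of this gene pair, COPZ1 made up 47.9% and 48.0% in NC and 16.5% and 17.4% in COL8A1 libraries. The balance between zeta and delta transcripts was therefore nearly identical within each group and differed between the groups.

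COPZ2 (ENSG00000005243; chromosome 17, 48026167 to 48038030, minus strand) encodes the other zeta subunit, which can take the place of COPZ1 in the coat. It had 2 counts in NC replicate 1 and 0 in the other 3 libraries. A count of 0 allows a level of up to 3 counts, or 0.0890 CPM in NC replicate 2 and 0.0944 and 0.108 CPM in COL8A1 replicates 1 and 2. COPZ2 was the only member that did not pass the filter on low counts. Per length COPZ1 made up 99.9% of the zeta pair in NC replicate 1 and 100% in the others, so no rise of COPZ2 beside the lower COPZ1 could be detected at this depth. That limit covers counting error only.

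The gamma subunit also comes in 2 forms, and neither showed a difference of this size. COPG1 (ENSG00000181789; chromosome 3, 129249606 to 129277773, plus strand), the more abundant gamma gene, was at 122 and 119.8 CPM in NC and 135 and 130.2 CPM in COL8A1 libraries. Its COL8A1 libraries were above its NC libraries by 1.07-fold to 1.13-fold. COPG2 (ENSG00000158623; chromosome 7, 130506238 to 130668748, minus strand) was at 67.2 and 68.9 CPM in NC and 72.5 and 68.0 CPM in COL8A1 libraries, so that the groups overlapped. Per length COPG2 made up 37.0% and 38.1% of the gamma pair in NC and 36.5% and 35.8% in COL8A1 libraries. COPG2 ends within an exon of MEST on the opposite strand, an imprinted gene with 6498 to 8138 counts per library, and the strand setting of the counting is not given in the sources used here. With the whole counts of its overlapping genes on either strand added, the log2 fold change of COPG2 turned from 0.05 to −0.07. COPG2 itself had 2060 and 2323 counts in NC and 2305 and 1888 in COL8A1 libraries. Most of that sum was therefore MEST, whose own log2 fold change was −0.10, and the turn is not read as a change of COPG2.

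COPB1 (ENSG00000129083; chromosome 11, 14443440 to 14500027, minus strand), the beta subunit and the partner of ARCN1, was at 160.2 and 162 CPM in NC and at 146 and 173 CPM in COL8A1 libraries. The COL8A1 libraries lay on either side of the NC libraries (log2 fold change −0.02). Without COL8A1 replicate 1 this value was 0.10, and without COL8A1 replicate 2 it was −0.15.

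The outer layer stayed close between the groups. COPA (ENSG00000122218; chromosome 1, 160288686 to 160343400, minus strand), the alpha subunit, which together with beta prime reads the retrieval signals of cargo, was at 245 and 216 CPM in NC and 237 and 239.6 CPM in COL8A1 libraries, with overlapping groups and a log2 fold change of 0.05 (−0.04 without NC replicate 2 and 0.14 without NC replicate 1). COPB2 (ENSG00000184432; chromosome 3, 139355600 to 139389732, minus strand), the beta prime subunit, was at 188 and 195.5 CPM against 184 and 185 CPM. COPE (ENSG00000105669; chromosome 19, 18899514 to 18919397, minus strand), the epsilon subunit that steadies alpha, was at 111 and 117 CPM against 125 and 119 CPM. COPB2 was lower and COPE higher in both COL8A1 libraries, with single-library ratios of 0.943 to 0.985 for COPB2 and 1.02 to 1.12 for COPE.

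Of the 9 members that passed the filter, 3 (ARCN1, COPE and COPG1) had both COL8A1 libraries above both NC libraries, 2 (COPZ1 and COPB2) had both below, and 4 overlapped. Of all genes tested, 18.9% stood apart upwards and 18.6% downwards in this way, 37.5% together, and nothing is read from the members' count since this contrast chose them. Among the 6 coat genes other than COPZ1 and ARCN1, the log2 fold changes ran from −0.05 to 0.13 with a median of 0.05, beside a median of 0.001 over all genes tested. Any single COL8A1 library was between 0.899 and 1.13 times any single NC library for these 6. Their summed level was 894 and 879 CPM in NC and 899.5 and 915 CPM in COL8A1 libraries.

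**Figure D2:**
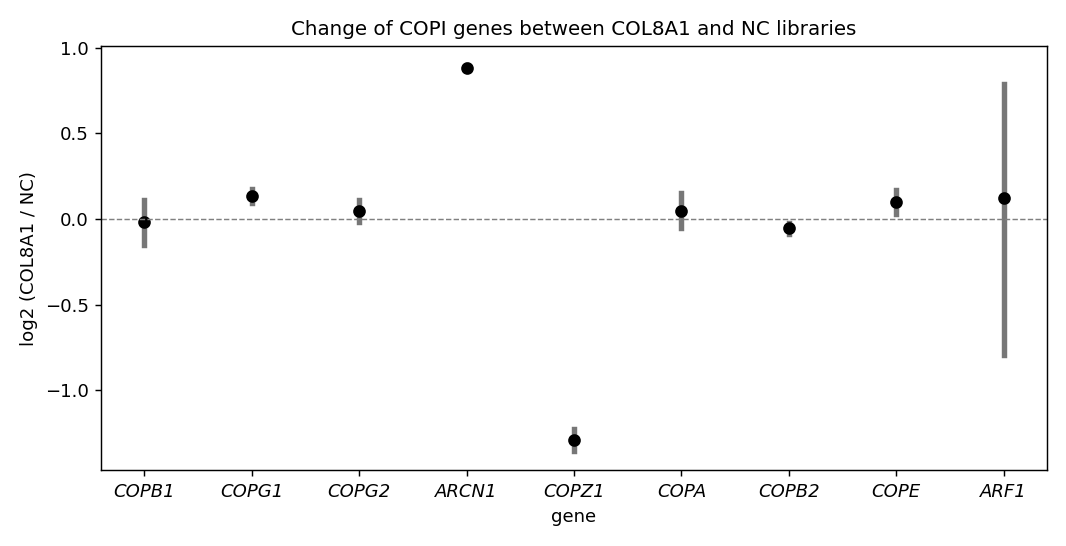
Log2 ratio of COL8A1 to NC (vertical axis) for 9 COPI genes (horizontal axis). Points are edgeR log2 fold changes and grey bars span the 4 ratios of a single COL8A1 to a single NC library. COPZ1 (−1.29) and ARCN1 (0.88) lie outside the range of the other 6 coat genes (−0.05 to 0.13), and the bar of ARF1 spans 0.576-fold to 1.73-fold.

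Per exon length, the coat genes differed in level in NC cells. Relative to the median of the 8 detected coat genes in the same library, the NC levels ran in order from COPG2 (0.516 and 0.559) through COPB2 (0.730 and 0.803), COPG1 (0.877 and 0.909), COPA (1.01 and 0.938), COPB1 (0.992 and 1.06), COPZ1 (1.24 and 1.32) and COPE (1.23 and 1.36) to ARCN1 (1.35 and 1.435). Neighbours from COPA to COPB1 and from COPZ1 to ARCN1 overlapped in their values over the 2 libraries, and COPG2 and COPB2 stood apart below. In COL8A1 cells ARCN1 was at 2.65 and 2.61 times the coat median, above every other coat gene, and COPZ1 was at 0.523 and 0.551, beside COPG2 (0.594 and 0.544) at the low end. In NC cells the zeta and delta genes had thus lain next to COPE at the top of the order, and in COL8A1 cells they lay at opposite ends. Exon lengths come from the union of all annotated exons, so the order between genes depends on which transcripts the cells use. A gene's own length is the same in every library, but the lengths also determine which genes set the coat median. Differences in transcript use between libraries were not looked at.

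**Figure D3:**
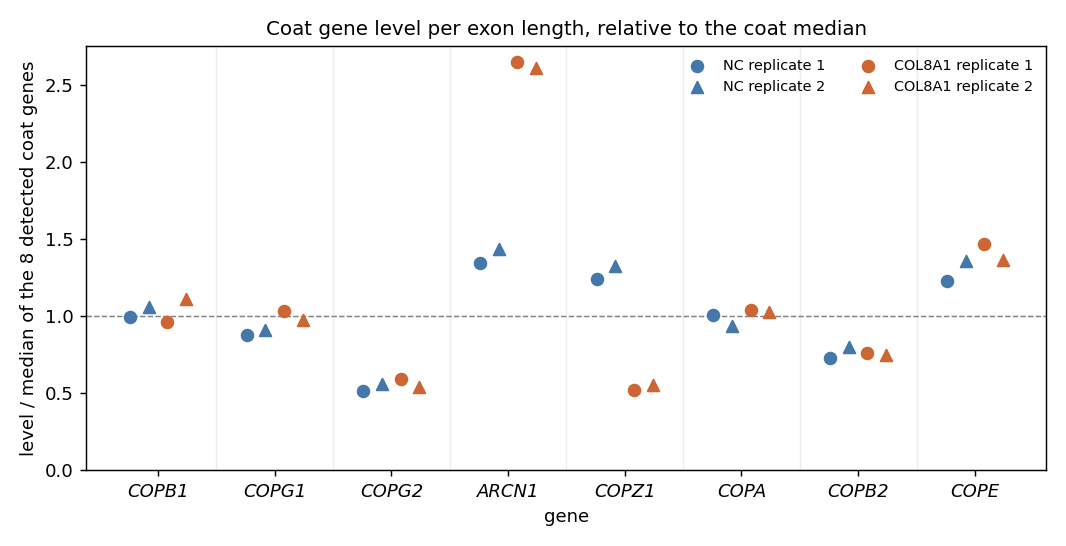
Level per exon length of each detected coat gene, divided by the median of the 8 coat genes in the same library (vertical axis, linear, dashed line at 1), by gene (horizontal axis) and library (colours and symbols as in the plot of CPM). ARCN1 moves from 1.35 and 1.435 in NC to 2.65 and 2.61 in COL8A1 libraries, and COPZ1 from 1.24 and 1.32 to 0.523 and 0.551.

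ARF1 (ENSG00000143761; chromosome 1, 228082660 to 228099212, plus strand), whose GTP-bound form anchors the coat, had 8544 and 7470 counts in the NC pair and 5098 and 10649 in the COL8A1 pair. These were 279 and 222 CPM against 160.4 and 383 CPM, so that COL8A1 replicate 1 was the lowest library and COL8A1 replicate 2 the highest. The gap between the COL8A1 libraries was 2.39-fold, and 2.16% of the genes tested had as wide a gap between those libraries. The NC mean was 250.1 ± 40.3 CPM and the COL8A1 mean 272 ± 158 CPM (SD, n = 2 each). The log2 fold change of 0.12 was well within that spread, turning to −0.64 without COL8A1 replicate 2 and to 0.62 without COL8A1 replicate 1. No direction can therefore be given for ARF1.

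The other ARF GTPases, which share membrane recruitment of coats with ARF1, were read from the same fit across all genes. Of the 5 in that list (ARF3, ARF4, ARF5, ARF6 and the related ARL1) 4 were higher and 1, ARL1, was lower at −0.12 (median log2 fold change 0.17). ARF4, a class II ARF of the early Golgi, was at 150.5 and 118 CPM in NC and 234 and 219 CPM in COL8A1 libraries, with no overlap between the groups (log2 fold change 0.75, SE 0.133, edgeR adjusted p = 0.492, DESeq2 adjusted p = 0.00111). It passed in 1 of 15 alternatives, DESeq2, and with the replicate block the edgeR adjusted p was 0.545. The direction was kept in all 15, which is no support, since groups that do not overlap could hardly turn. ARF3, nearly identical to ARF1 in protein sequence, was at 209 and 200.5 CPM against 207 and 253 CPM (log2 fold change 0.17, edgeR adjusted p = 0.852), which became 0.31 without COL8A1 replicate 1 and 0.01 without COL8A1 replicate 2. ARF5 was at 83.2 and 81.0 CPM against 81.1 and 86.0 CPM. ARF6, which acts at the plasma membrane and not with COPI, was at 4.21 CPM in NC replicate 1 but at 100.2 CPM in NC replicate 2 and at 98.0 and 94.5 CPM in COL8A1 libraries. A gap between the NC libraries as wide as that of ARF6 was found in 0.0646% of the genes tested (11 genes). Its log2 fold change of 0.88 was −0.06 without NC replicate 1 and 4.51 without NC replicate 2. Summed over ARF1, ARF3, ARF4, ARF5 and ARF6, the level was 725 and 722 CPM in NC and 780.2 and 1036 CPM in COL8A1 libraries.

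**Figure D4:**
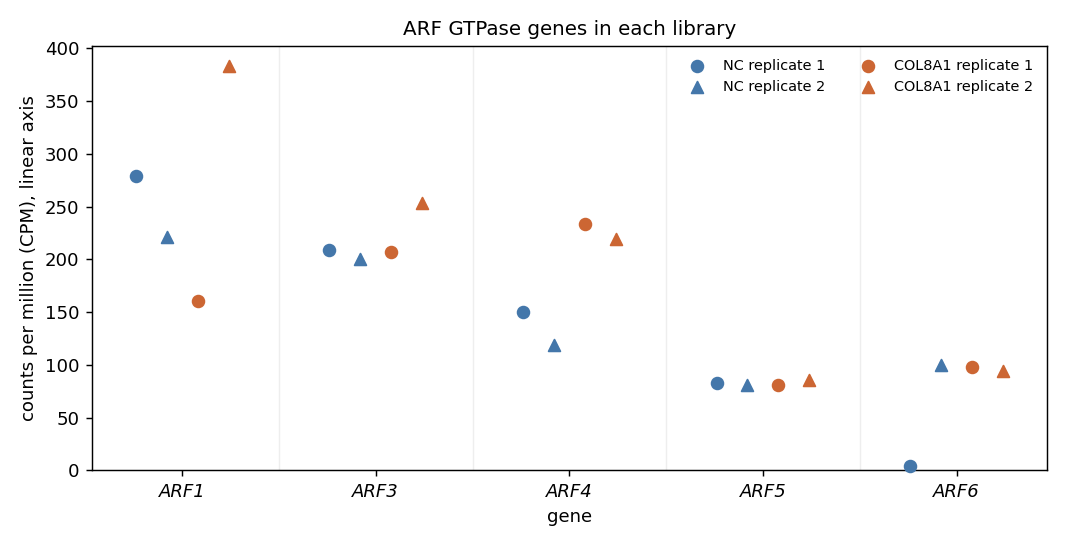
CPM (vertical axis, linear, from 0) of 5 ARF GTPase genes (horizontal axis) in each library, NC in blue and COL8A1 in orange, circles for replicate 1 and triangles for replicate 2. ARF4 is higher in both COL8A1 libraries (234 and 219 against 150.5 and 118), ARF1 has its lowest and its highest value in COL8A1 libraries, and ARF6 has 1 low library, NC replicate 1 (4.21).

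The question for the wider pathway was whether regulators, cargo receptors, tethers and related coats differed along with COPZ1 and ARCN1. Of 135 such genes in 11 lists, 134 could be tested. In edgeR 0 of them passed an adjusted p of 0.05, beside 0 genes higher (0%) and 2 genes lower (0.0117%) among all 17030. At an unadjusted edgeR p under 0.05 there were 3 higher and 6 lower, beside backgrounds of 3.44% higher and 2.63% lower (6.07% of all genes tested in either direction, and 6.72% of the pathway genes). DESeq2 called 2, ARF4 and PITPNB, both higher, against 0.605% of genes called higher and 0.452% called lower overall. The pathway genes divided into 65 higher and 69 lower, and their median log2 fold change was −0.004. COL8A1 itself, at a log2 fold change of 5.45, was not called in edgeR either (edgeR adjusted p = 0.0681). The lack of edgeR calls in the pathway is therefore not read as absence of change.

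Among 9 accessory and assembly factors, PITPNB stood out. It encodes a phosphatidylinositol transfer protein that supplies the Golgi membranes from which COPI vesicles bud. PITPNB (ENSG00000180957) was at 28.9 and 29.8 CPM in NC and 72.8 and 85.3 CPM in COL8A1 libraries, so that both COL8A1 libraries were at least 2.44 times either NC library. Its log2 fold change was 1.43 (SE 0.115, edgeR adjusted p = 0.111, DESeq2 adjusted p = 5.49e-18), and it passed an adjusted p of 0.05 in 3 of 15 alternatives. Those were DESeq2, no filter on low counts (edgeR adjusted p = 0.0324) and robust dispersion shrinkage (edgeR adjusted p = 0.0471), and over all 15 the adjusted p reached 0.354, with the replicate block. FAM3C, a secreted factor also in this list, was at 126 and 124 against 149.6 and 151 CPM (log2 fold change 0.26, edgeR adjusted p = 0.648). The list had 4 members higher and 5 lower (median −0.01).

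Regulators of the ARF cycle gave no call in either tool. ARFGAP1, which triggers GTP hydrolysis on ARF1 and the shedding of the coat, was at 76.3 and 48.3 CPM in NC and 32.6 and 38.0 CPM in COL8A1 libraries (log2 fold change −0.82, SE 0.245, edgeR adjusted p = 0.742). NC replicate 1 was far above NC replicate 2, and without it the log2 fold change was −0.46. ARFGAP2 was at 78.9 and 75.9 against 64.2 and 76.3 CPM (log2 fold change −0.14, or −0.02 without COL8A1 replicate 1 and −0.27 without COL8A1 replicate 2). Of 7 exchange factors, which load ARFs with GTP, 4 were higher and 3 lower, with log2 fold changes from −0.15 (CYTH3, −0.09 without COL8A1 replicate 1) to 0.14 (CYTH2). The list of 5 Golgi GTPase-activating proteins had 2 higher and 3 lower, and a median of −0.10.

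Cargo receptors that COPI carries back differed little. Of 9 p24 proteins 7 were higher and 2 lower (median 0.05). TMED2 was at 257 and 286 CPM against 444 and 293 CPM (log2 fold change 0.44, edgeR adjusted p = 0.835), and only COL8A1 replicate 1 was far from the rest. Without it the TMED2 value was 0.11, and without COL8A1 replicate 2 it was 0.70. TMED10 was at 276 and 192 against 284 and 274 CPM. Of 14 KDEL receptors and retrieval cargoes 7 were higher and 7 lower (median 0.001). SURF4, a receptor that exports cargo from the ER and cycles back in COPI vesicles, was at 270.0 and 265 against 233 and 216 CPM (log2 fold change −0.25, edgeR adjusted p = 0.663). The ER chaperone PDIA4 was at 539 and 411 against 597 and 582 CPM (log2 fold change 0.31, edgeR adjusted p = 0.827), a value that was 0.52 without NC replicate 1 and 0.13 without NC replicate 2.

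The machinery that receives COPI vesicles showed no calls either. Golgi tethers and golgins had 11 higher and 13 lower of 24 (median −0.01). COG4, of the complex that tethers vesicles within the Golgi, was at 96.3 and 86.9 against 78.8 and 78.6 CPM (log2 fold change −0.22, or −0.14 without NC replicate 1), and the golgin GOLGA2 at 49.5 and 49.2 against 53.8 and 70.6 CPM (log2 fold change 0.33). The GOLGA2 value was 0.52 without COL8A1 replicate 1 and 0.12 without COL8A1 replicate 2. Of the 7 genes of the Dsl1 tether and ER SNAREs, which accept COPI vesicles at the ER, 2 were higher and 5 lower, with a median of −0.11. STX18, an ER SNARE, was at 35.6 and 28.2 against 24.1 and 23.4 CPM (log2 fold change −0.42, edgeR adjusted p = 0.797, or −0.25 without NC replicate 1), and RINT1, a tether subunit, at 42.7 and 42.2 against 36.9 and 37.4 CPM (log2 fold change −0.19). Golgi SNAREs had 7 higher and 6 lower of 13 (median 0.02). The SNARE gene STX16 was at 130.4 CPM in NC replicate 1 and at 62.5, 30.6 and 58.6 CPM in the other 3 libraries (log2 fold change −1.11, edgeR adjusted p = 0.821). Without NC replicate 1 the STX16 value was −0.49, without COL8A1 replicate 1 it was −0.72, and without COL8A1 replicate 2 it was −1.66. BET1 was at 14.2 and 21.6 against 24.4 and 24.2 CPM.

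The medians of the related coats were close to the background. COPII, the coat of ER export, had 7 higher and 9 lower of 16 tested (median −0.01, single genes from −0.59 to 0.35). SEC23B was at 123.5 and 123 against 111.5 and 102 CPM (log2 fold change −0.20, edgeR adjusted p = 0.816) and SEC24D at 34.6 and 37.1 against 46.5 and 38.9 CPM. The 25 clathrin and adaptor genes had 10 higher and 15 lower (median −0.03), with the clathrin light chain CLTB at 60.0 and 64.3 against 49.6 and 52.4 CPM (log2 fold change −0.28, edgeR adjusted p = 0.763). AP1S3, a small adaptor chain of the same fold family as zeta, was at 53.2 and 51.6 against 43.2 and 45.3 CPM (log2 fold change −0.24, edgeR adjusted p = 0.808).

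**Figure D5:**
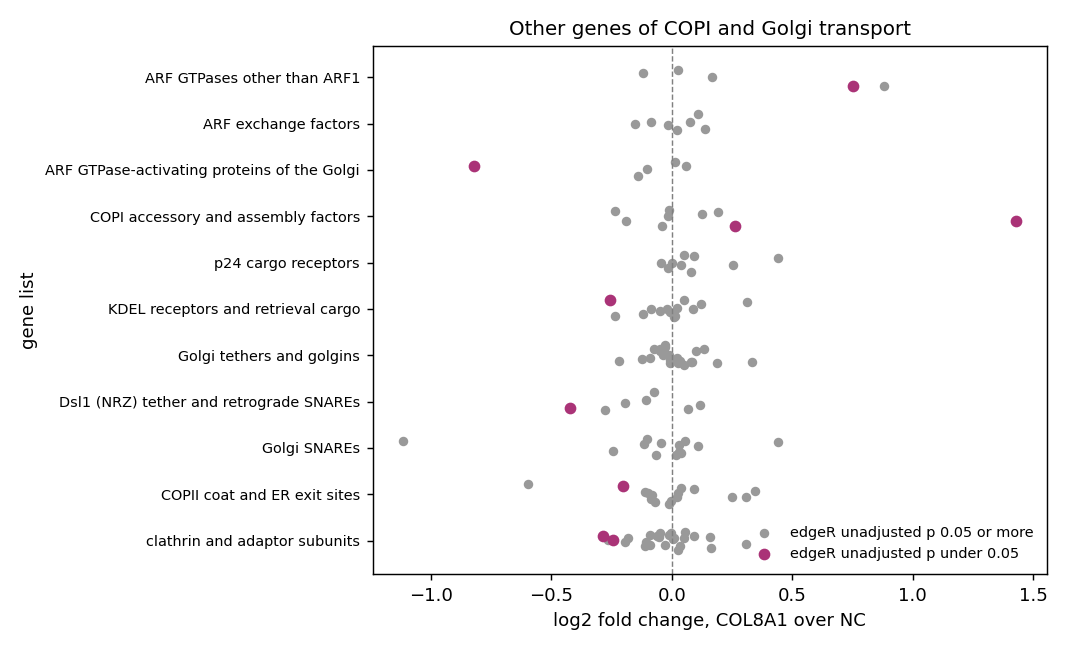
The edgeR log2 fold change of COL8A1 over NC (horizontal axis) for the tested genes of 11 transport lists (vertical axis, with vertical jitter), coloured where the unadjusted edgeR p was under 0.05 (9 genes). Most genes lie close to 0, and PITPNB (1.43) is the farthest to the right.

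Neighbouring genes were read as a check on the loci. HNRNPA1, an RNA-binding protein gene that ends 14114 bases before COPZ1, was at 1601 and 1386 CPM in NC and 1232 and 1369 CPM in COL8A1 libraries (log2 fold change −0.20, edgeR adjusted p = 0.835). That HNRNPA1 value ran from −0.30 (without NC replicate 2) to −0.09 (without NC replicate 1), and was −0.13 without COL8A1 replicate 1. ZNF385A on the other side was at 16.6 and 17.9 against 15.5 and 16.5 CPM. PHLDB1, which starts 3407 bases after ARCN1 on the same strand, was at 129.7 and 132 CPM in NC and 162 and 163 CPM in COL8A1 libraries (log2 fold change 0.31, SE 0.063, edgeR adjusted p = 0.567, DESeq2 adjusted p = 0.0904, up to 0.972 over the alternatives). IFT46, which overlaps the start of ARCN1 by 581 bases on the opposite strand without sharing an exon, was at 15.5 and 13.7 against 13.3 and 14.5 CPM. Next to COPZ2, CDK5RAP3 was at 65.7 and 47.1 against 67.3 and 63.5 CPM, and NFE2L1-DT at 0.880 and 1.01 against 0.850 and 0.504 CPM. No neighbour of COPZ1 or ARCN1 thus differed by as much as those genes did.

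Shared reads with other counted genes were looked for in the same annotation. COPZ1 and ARCN1 shared no exon with another counted gene in GENCODE release 29. GPR84 lies past the end of COPZ1 in that release (chromosome 12, 54362445 to 54364487, minus strand), and it had 0 counts in every library. COPA, COPB1, COPB2, COPE, COPG2 and ARF1 did share exons with other genes. Of these, COPG2 was the only one whose log2 fold change turned its sign when the overlapping counts were added, in a sum made up mostly of MEST counts. The annotation that was used for counting is not given in the sources used here and may hold other overlaps.

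Genes with the most similar pattern over the 4 libraries were found by the Euclidean distance between log2 CPM values centred on each gene's mean, among 11276 other genes with a mean of at least 5 CPM. Nearest to COPZ1 were SKA1, of the kinetochore (distance 0.144, 16.8 and 15.0 CPM in NC and 5.88 and 6.91 CPM in COL8A1 libraries), YTHDF2, a reader of m6A in RNA (distance 0.150, 86.3 and 82.2 against 36.8 and 38.4 CPM), and the calcium channel gene ORAI3 (distance 0.272). The log2 fold change of YTHDF2 was −1.16. No p-values are given for the nearest genes, since they were picked for likeness to members chosen on this contrast. Nearest to ARCN1 were AGPS, an enzyme of ether lipid synthesis (distance 0.106, 122 and 116 against 211 and 232 CPM), the amino acid transporter SLC38A3 (0.134) and SMN2 (0.138). SMN2 is nearly identical to SMN1, so its reads may be shared and its value is uncertain. With 4 libraries in 2 groups, a short distance says little more than that a gene differs between the groups by a similar amount.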

How the data were processed

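The authors deposited a table of raw read counts by gene and library, made with Trim Galore 0.6.9, HISAT2 2.2.1 and featureCounts (listed as version 0.3) on hg38, per the submitters' processing notes. The sources used here do not name the strand setting or the annotation release. A line that was no gene was left out. PCR copies count as reads.

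In R 4.3.3, edgeR 4.0.16 was run with filterByExpr, TMM scaling, the quasi-likelihood F-test with group as the only term (2 residual degrees of freedom) and Benjamini-Hochberg adjustment over 17030 genes (threshold 0.05). SEs were derived as the log2 fold change over the root of F. DESeq2 1.42.0, limma-voom (limma 3.58.1), other scalings and filters, a replicate block, summed overlaps and left-out libraries were the alternatives. Gene positions and exon lengths are from GENCODE release 29, which placed 58254 of 61806 genes.

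The members, lists and tests were chosen with earlier results of these data known. Named genes are the members, COL8A1, the 2 smallest edgeR p-values of each list, the nearest patterns, overlapping genes and chromosomal neighbours. ARF5, ARF6 and GPR84 were added after their values were seen. A further list of cell type markers is not reported here.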

Additional observations from a re-analysis of the deposited data

How the results depend on the processing

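Over the 15 alternatives COPZ1 and ARCN1 were at −1.35 to −1.24 and 0.87 to 0.89 on the log2 scale. Both were chosen on this contrast and their groups did not overlap. Their direction could therefore hardly turn, and that it was kept is no support. The counts of edgeR calls higher and lower in COL8A1 cells (0 and 2) were 11 and 6 with no filter other than a count above 0, 8 and 6 with robust dispersion shrinkage and 103 and 77 in DESeq2. The pathway genes called were 0 in edgeR, 1 with no filter (PITPNB), 1 with robust shrinkage (PITPNB) and 2 in DESeq2. With each library left out in turn the calls ran from 0 to 2 higher, 0 to 2 lower and 0 to 1 in the pathway, the last being ARF6 without NC replicate 2. A lone library in a group is then assumed to vary like the other group.

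The replicate block gave 1 call lower in place of 2. Same-numbered libraries share only a number, and their deviations had a correlation of −0.0363 over the genes tested.

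Signs turned for ARF1 in limma-voom (−0.0149 on the log2 scale) and with the replicate block (−0.00194). For COPG2 the value was −0.0708 with the whole counts of overlapping genes added on either strand, a sum made up mostly of MEST counts. With each library left out in turn, ranges that crossed 0 were −0.645 to 0.616 for ARF1, −0.0446 to 0.141 for COPA, −0.147 to 0.0989 for COPB1 and −0.00144 to 0.0883 for COPG2. Among other named genes they were −0.0203 to 0.0674 for ARF5, −0.0597 to 4.51 for ARF6, −0.162 to 0.0197 for IFT46 and −0.00988 to 0.474 for CDK5RAP3. The cause was not tested. With 2 libraries a group, small differences could not be detected.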
